A study of Mus musculus with 6 samples.

Results

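The glucocorticoid receptor gene Nr3c1 and 9 genes known to be induced by the receptor were followed in lungs of Col6a1-/- mice and wildtype mice. The genes were Nr3c1, Fkbp5, Tsc22d3, Zbtb16, Sgk1, Pdk4, Cdkn1a, Klf9, Mt1 and Mt2, chosen by name for this role with earlier results of these data known, and they are 10 of the 49568 genes in the deposited table. All 10 passed the filter on low values. The study compared Col6a1-/- mice with wildtype mice, both labelled C57BL/6 and both 6 weeks old. The labels name no drug or exposure for either group. Col6a1 encodes a chain of the matrix protein collagen VI. RNA came from right lung lobes after the lung vessels had been perfused. There were 3 libraries per genotype, and each library was a pool of 2 animals of that genotype, so that 12 animals gave 6 libraries. The sources used here do not give sex, housing or hour of collection. Col6a1-/- replicate 2 is the pool of Col6a1-/- animals 3 and 4, replicate 1 that of animals 1 and 2, and replicate 3 that of animals 5 and 6. The column of wildtype replicate 2 carries the added word New in its header, with no meaning given in the sources used here, and this library was the highest of the 6 for Fkbp5, Zbtb16 and Cdkn1a.

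Glucocorticoids are adrenal steroid hormones that bind the receptor in the cytoplasm, where chaperones hold it. The bound receptor moves to the nucleus and raises or lowers transcription of its target genes, many of them through a DNA sequence called the glucocorticoid response element. Hormone levels follow the time of day and rise with stress, and in lung the receptor acts on alveolar maturation, ion transport and inflammation. No hormone level was measured in this study.

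No member was called between genotypes. Cdkn1a, Fkbp5, Pdk4 and Klf9 had lower means in Col6a1-/- lungs with unadjusted p under 0.05, Nr3c1, Tsc22d3, Sgk1 and Mt1 lay within 11% of wildtype, and Zbtb16 and Mt2 had lower means with unadjusted p above 0.05. The test was limma on log2(normalized count + 1), two-sided, with a threshold of 0.05 on the p adjusted by Benjamini-Hochberg over all tested genes. Under it 0 of 10 members were called, against 0.0652% of the 16879 genes tested (0.0474% lower and 0.0178% higher). At an unadjusted p under 0.05 there were 4 members, all lower in Col6a1-/- lungs, against 20.3% of all tested genes in either direction, 10.6% lower and 9.72% higher. By edgeR's quasi-likelihood test on the recovered reads 0 members were called (0.077% of all genes), and by DESeq2 on those reads 2 were, both lower (5.06% of all genes, 3.18% lower and 1.87% higher). In the authors' deposited table the same 2 members, Fkbp5 and Cdkn1a, had an adjusted p under 0.05, as did 5.05% of the genes with one, 3.18% lower and 1.87% higher. The genotypes did not overlap for 3 members, all lower in Col6a1-/- lungs (14.2% of all tested genes, and 10.7% higher). The median log2 fold change was -0.35 over the members and 0.0098 over all tested genes. Fewer cells of a type and less RNA per cell cannot be told apart in these whole-lung libraries.

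Libraries held 28055414 to 37904878 reads in genes. Col6a1, the targeted gene, stood at 10034, 10616 and 9344 normalized counts in the Col6a1-/- libraries, against 19907, 18393 and 22330.5 in the wildtype libraries, so the label held in direction while reads of the gene remained. The lung markers were abundant in every library, with Sftpc between 443498 and 583425 normalized counts. The adrenal enzyme genes Cyp11b1 and Cyp21a1, which make corticosteroids, were at 0 in all 6 libraries. Summed counts of red cell genes were 66007 to 106958 in Col6a1-/- libraries and 45028 to 51159 in wildtype libraries, and the part of blood in the results was not tested. Male share, read from 4 Y-linked genes relative to Col6a1-/- replicate 2, came to 72.5%, 100% and 51.1% for the Col6a1-/- pools in the order of their numbers, against 0.347%, 3.35% and 51.5% for the wildtype pools. Sex and genotype are therefore partly confounded. Clock genes also set Col6a1-/- replicate 2 apart. Dbp, a clock output gene, had 11404 normalized counts there, against 774 and 957 in the other Col6a1-/- libraries and 478 to 862 in wildtype. Arntl, a core clock activator, had 81 there, against 1157 and 1076 in the other Col6a1-/- libraries and 962 to 1125 in wildtype. Results are therefore given with and without this library. Without it limma called 0 members, against 0.281% of all genes, and 21.5% of all genes had an unadjusted p under 0.05.

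**Figure D1:**
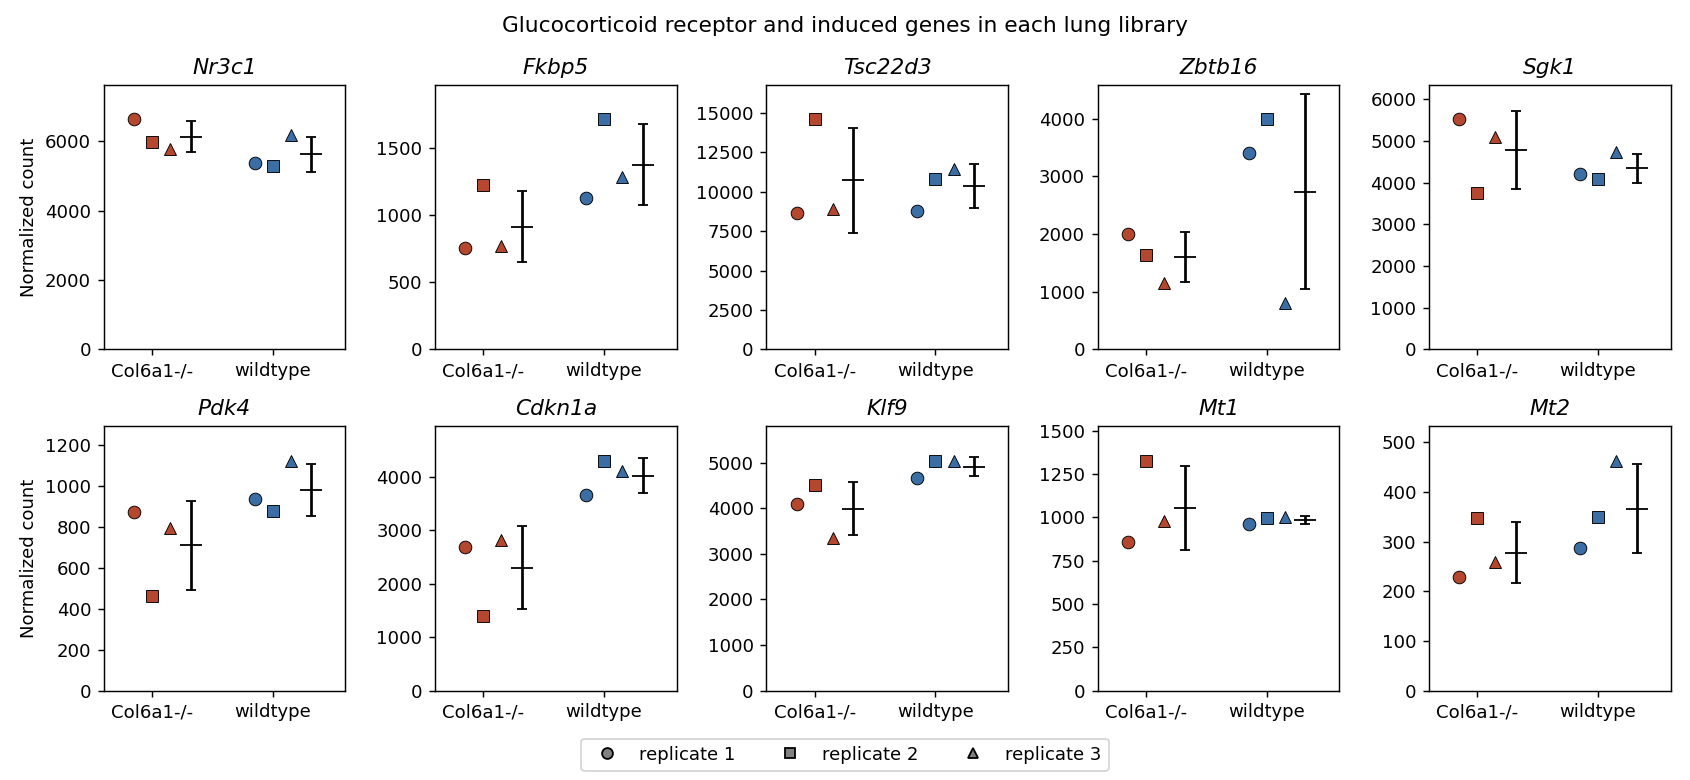
Normalized counts (vertical axes, from 0) of the receptor gene and 9 induced genes in Col6a1-/- and wildtype lung libraries. Points are libraries with a shape for each replicate, and the bar beside them is the mean ± SD of 3 libraries. Cdkn1a, Klf9 and Pdk4 do not overlap between genotypes, and Tsc22d3 and Mt1 are highest in Col6a1-/- replicate 2.

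Nr3c1 (ENSMUSG00000024431.15, chromosome 18, 39410545 to 39519421, minus strand, GRCm38) encodes the glucocorticoid receptor. It had 6631, 5982 and 5773 normalized counts in Col6a1-/- replicates 1, 2 and 3, against 5388, 5279 and 6196 in wildtype replicates 1, 2 and 3. The genotypes overlapped, because wildtype replicate 3 lay above Col6a1-/- replicates 2 and 3. Means ± SD of 3 libraries were 6129 ± 447 for Col6a1-/- and 5621 ± 501 for wildtype, giving log2 fold change 0.13 ± 0.096 (SE; limma adjusted p 0.478). The 95% interval of the log2 fold change ran from -0.09 to 0.34. Leaving out single libraries gave 0.07 (without Col6a1-/- replicate 1) to 0.20 (without wildtype replicate 3), and the male share as a covariate gave -0.03.

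Fkbp5 encodes an immunophilin that binds the chaperone complex of the receptor and lowers its affinity for hormone, and it is itself a strongly induced receptor target. Fkbp5 (ENSMUSG00000024222.17, chromosome 17, 28399094 to 28517527, minus strand) had 753, 1220.2 and 768 normalized counts in Col6a1-/- replicates 1, 2 and 3, against 1128, 1711 and 1284 in wildtype replicates 1, 2 and 3. Col6a1-/- replicates 1 and 3 were below every wildtype library, and Col6a1-/- replicate 2 lay between wildtype replicates 1 and 3. Over 3 libraries each, means ± SD were 914 ± 266 for Col6a1-/- and 1374 ± 302 for wildtype, or 66.5% of wildtype. Limma put the log2 fold change at -0.60 ± 0.20 (SE; adjusted p 0.145; unadjusted p 0.0115). DESeq2 on the recovered reads called it, with a log2 fold change of -0.59 and an adjusted p of 0.0431. In the authors' deposited table its log2 fold change was -0.45 with an adjusted p of 0.0432. The unadjusted p was 0.00196 both by DESeq2 on the recovered reads and in the deposited table. These log2 fold changes are therefore not the same measure, and the deposited one is not a weaker test result. Without Col6a1-/- replicate 2 the limma log2 fold change was -0.83 with an adjusted p of 0.0584. It was -0.43 without wildtype replicate 2, with a limma adjusted p of 0.416 and an unadjusted p of 0.0523. In the pools of mixed sex, Col6a1-/- replicates 1 and 3 had 753 and 768 normalized counts and wildtype replicate 3 had 1284.

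The Fkbp5 promoter window is shown because Fkbp5 is a member whose level in Col6a1-/- replicate 2 differed from the other Col6a1-/- libraries while clock genes did too. It covers chr17:28486150-28486399, minus strand, the 250 bases before a RefSeq start on GRCm38.p6, with the clock E-box (CACGTG) in capitals.

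Fkbp5 promoter: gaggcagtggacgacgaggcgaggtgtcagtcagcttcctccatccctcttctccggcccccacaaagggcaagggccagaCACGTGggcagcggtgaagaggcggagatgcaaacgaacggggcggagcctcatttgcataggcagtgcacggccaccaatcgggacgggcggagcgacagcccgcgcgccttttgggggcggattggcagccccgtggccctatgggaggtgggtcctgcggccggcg

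The E-box, which reads alike on both strands, was in 6.02% of all 32851 RefSeq promoter windows of this length. Among the members it was in 2 of the 16 windows read, which came from 8 members. Nr3c1, on chromosome 18, was left out of this reading, and Zbtb16 had no window. The other window with it was one of Sgk1, printed below without capitals for it. In Col6a1-/- replicate 2 Sgk1 was lower than in the other Col6a1-/- libraries, and Fkbp5 was higher. Tsc22d3, Mt1, Mt2, Cdkn1a and Pdk4 also differed there, and their windows held no E-box. The part of the E-box in these levels was not tested. The strong receptor sites of Fkbp5 are known to lie in its introns, outside this window, and a match of letters says nothing of binding.

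The genes nearest to Fkbp5 by their pattern over the 6 libraries were found by the Euclidean distance between centred log2 values, over 12999 genes with a mean of at least 100. They were RP24-286J21.7 (distance 0.356), Loxl4 (0.383), Map3k6 (0.419), Fam107a (0.431) and Proz (0.437). Loxl4 encodes a lysyl oxidase of the matrix and Map3k6 a stress kinase. Fam107a, another gene known to be induced by glucocorticoids, had 439, 548 and 378 normalized counts in Col6a1-/- replicates 1, 2 and 3, against 719, 930 and 783 in wildtype replicates 1, 2 and 3. All 3 Col6a1-/- values lay below all wildtype values, as for 14.2% of all tested genes.

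Tsc22d3 encodes GILZ, a leucine zipper protein that carries part of the anti-inflammatory action of glucocorticoids. Tsc22d3 (ENSMUSG00000031431.13, chromosome X, 140539528 to 140600659, minus strand) had 8642, 14588 and 8935 normalized counts in Col6a1-/- replicates 1, 2 and 3, against 8808, 10833 and 11449 in wildtype replicates 1, 2 and 3. The highest library was Col6a1-/- replicate 2, and Col6a1-/- replicates 1 and 3 lay near wildtype replicate 1. The group means ± SD (n = 3 each) were 10722 ± 3352 for Col6a1-/- and 10363 ± 1382 for wildtype, giving log2 fold change 0.01 ± 0.19 (SE; limma adjusted p 0.975). The sign rested on Col6a1-/- replicate 2, without which the log2 fold change was -0.23 with a limma adjusted p of 0.296. Without Col6a1-/- replicate 1 it was 0.15. The sign also turned without wildtype replicate 1 (-0.10), with median centring (-0.02), with the male share as a covariate (-0.50) and after a trend over GC and transcript length was taken out (-0.0063).

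Zbtb16 and Klf9 encode transcription factors. Zbtb16, also known as PLZF, is among the most strongly glucocorticoid-induced genes in many human cell types. Zbtb16 (ENSMUSG00000066687.5, chromosome 9, 48654297 to 48836222, minus strand) had 2006, 1644 and 1149 normalized counts in Col6a1-/- replicates 1, 2 and 3, against 3410.5, 3989 and 813 in wildtype replicates 1, 2 and 3. Wildtype replicates 1 and 2 were above all other libraries, and wildtype replicate 3 was below every Col6a1-/- library. Means ± SD of 3 libraries were 1599.8 ± 431 for Col6a1-/- and 2738 ± 1692 for wildtype, giving log2 fold change -0.52 ± 0.48 (SE; limma adjusted p 0.566). Wildtype replicate 3 decided the call. Without it, Zbtb16 had a log2 fold change of -1.24 and a limma adjusted p of 0.00837, in a fit that called 1383 genes. That fit sets pools with a male share of 51.1% to 100% against pools with 0.347% and 3.35%, so sex and genotype cannot be told apart in it. Without wildtype replicate 1 or 2 the log2 fold change was -0.21 or -0.10, with limma adjusted p of 0.882 or 0.949. Among the 4 pools that held males, Zbtb16 was at 2006, 1644 and 1149 normalized counts in Col6a1-/- libraries and at 813 in wildtype replicate 3. Zbtb16 had a log2 fold change of 0.67 once the male share was a covariate (limma adjusted p 0.805).

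**Figure D2:**
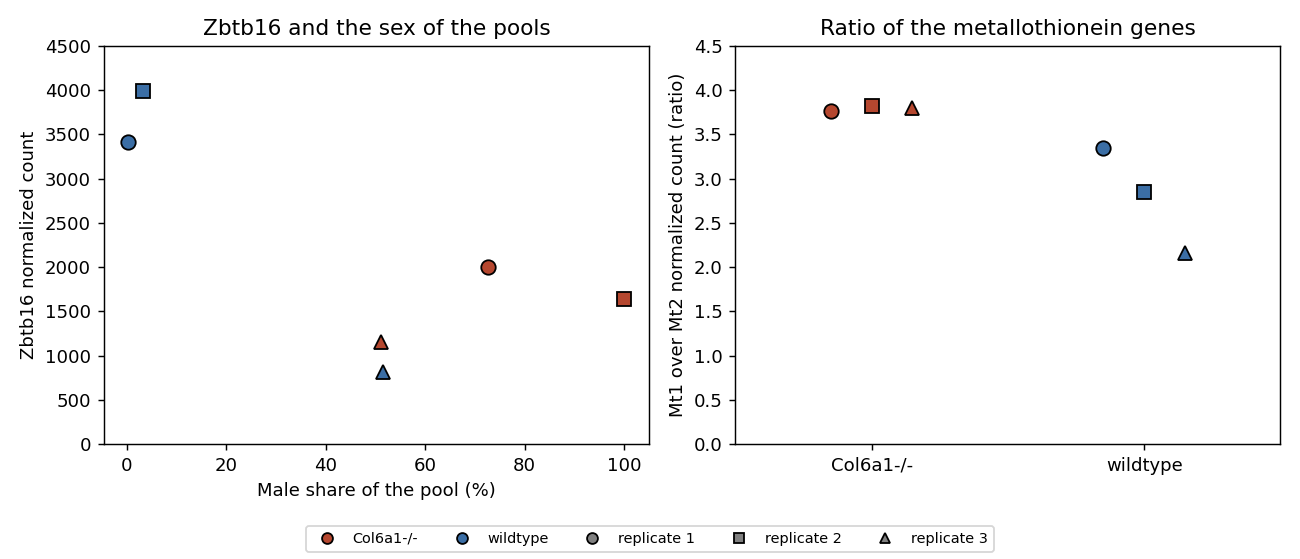
Left, Zbtb16 normalized count against the male share of each pool in percent. Right, the ratio of Mt1 to Mt2 normalized counts in Col6a1-/- and wildtype libraries. Points are single libraries, with a shape for each replicate. The wildtype pools with a male share of 0.347% and 3.35% have the highest Zbtb16, and the ratio is 3.76 to 3.83 in Col6a1-/- and 2.16 to 3.35 in wildtype libraries.

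Klf9 encodes a Krüppel-like factor induced by both glucocorticoids and thyroid hormone, and its level follows the clock in several tissues. Klf9 (ENSMUSG00000033863.2, chromosome 19, 23141226 to 23168134, plus strand) had 4103, 4518 and 3358 normalized counts in Col6a1-/- replicates 1, 2 and 3, against 4665, 5038 and 5043 in wildtype replicates 1, 2 and 3. All Col6a1-/- libraries were below all wildtype libraries, with Col6a1-/- replicate 2 nearest to wildtype replicate 1. Over 3 libraries each, means ± SD were 3993 ± 588 for Col6a1-/- and 4915 ± 217 for wildtype, or 81.2% of wildtype. Limma put the log2 fold change at -0.31 ± 0.11 (SE; adjusted p 0.171). It was -0.40 without Col6a1-/- replicate 2 (limma adjusted p 0.101) and -0.19 without Col6a1-/- replicate 3 (limma adjusted p 0.455, unadjusted p 0.0739). The male share as a covariate gave -0.55 (limma adjusted p 0.614).

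Sgk1 and Pdk4 encode kinases. Sgk1, a serum and glucocorticoid induced kinase, raises the surface level of the epithelial sodium channel. Sgk1 (ENSMUSG00000019970.15, chromosome 10, 21882184 to 21999903, plus strand) had 5516, 3743 and 5091 normalized counts in Col6a1-/- replicates 1, 2 and 3, against 4199, 4091 and 4737 in wildtype replicates 1, 2 and 3. Col6a1-/- replicates 1 and 3 were above every wildtype library, and Col6a1-/- replicate 2 was below all of them. The group means ± SD (n = 3 each) were 4783 ± 926 for Col6a1-/- and 4342 ± 346 for wildtype, giving log2 fold change 0.12 ± 0.14 (SE; limma adjusted p 0.633). Without Col6a1-/- replicate 2 the log2 fold change of Sgk1 was 0.29, with a limma adjusted p of 0.149. Leaving out Col6a1-/- replicate 1 gave 0.01 instead, with a limma adjusted p of 0.973, and the other single libraries gave 0.07 to 0.19. The male share as a covariate gave 0.23 for Sgk1.

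A promoter window of Sgk1 is shown because it held a full glucocorticoid response element, the only one in the 16 member windows read. The element is AGAACA, any 3 bases, then the reverse complement of AGAACA, so that both strands read alike. Sgk1 has several RefSeq starts, and this window covers chr10:21993640-21993889, plus strand, GRCm38.p6, the 250 bases before one of them. The element is in capitals, at bases 21993701 to 21993715, with its first base at -189 from that start.

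Sgk1 promoter: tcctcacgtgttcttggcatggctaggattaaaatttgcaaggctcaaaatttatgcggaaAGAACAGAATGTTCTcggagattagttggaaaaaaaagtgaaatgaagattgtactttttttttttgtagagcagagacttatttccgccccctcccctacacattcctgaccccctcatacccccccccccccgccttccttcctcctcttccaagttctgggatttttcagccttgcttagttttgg

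The full element was in 3 of the 32851 promoter windows (0.00913%) and in 1 of the 16 member windows read. These came from 8 members, without Nr3c1, which was left out, and Zbtb16, which had no window. The 6-letter arm AGAACA alone, on either strand and counted also where it is inside the full element, was in 16.1% of all windows and in 4 of the 16. A match describes these letters and is not evidence of a site in use.

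Pdk4 encodes a pyruvate dehydrogenase kinase that shifts fuel use from glucose to fatty acids, and it is induced by glucocorticoids, fasting and fatty acid receptors. Pdk4 (ENSMUSG00000019577.6, chromosome 6, 5483351 to 5496309, minus strand) had 875, 461 and 794 normalized counts in Col6a1-/- replicates 1, 2 and 3, against 939, 879 and 1124 in wildtype replicates 1, 2 and 3. Every Col6a1-/- library was below every wildtype library, but Col6a1-/- replicate 1 was within 5 counts of wildtype replicate 2. Means ± SD of 3 libraries were 710.0 ± 219 for Col6a1-/- and 981 ± 128 for wildtype, or 72.4% of wildtype, giving log2 fold change -0.51 ± 0.21 (SE; limma adjusted p 0.207). Without Col6a1-/- replicate 2 the log2 fold change of Pdk4 was -0.23, with an adjusted p of 0.319, and with the male share as a covariate it was -0.31, with a limma adjusted p of 0.828. Pdk4 is also a gene of heart and fat. Of the markers of heart and fat, 13 of 15 and 12 of 13 tested had higher estimates in Col6a1-/- lungs. Limma called 0 of either list, against 0.0652% of all tested genes. At an unadjusted p under 0.05 by limma, 11 heart and 11 fat markers were higher (9.72% of all tested genes). There were 0 and 1 lower (10.6%). DESeq2 called 7 and 3 higher, against 1.87% of all genes. The summed count of the cardiac list was 28362 to 30524 in Col6a1-/- and 20878 to 27412 in wildtype libraries, and that of the fat list was 13415 to 18413 and 7358 to 12566. No marker of either list was at 0 in all libraries, and their part in the Pdk4 values was not tested.

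Cdkn1a had the lowest estimate among the members. It encodes p21, an inhibitor of cyclin-dependent kinases that is induced by glucocorticoids and by p53. Cdkn1a (ENSMUSG00000023067.14, chromosome 17, 29090976 to 29100727, plus strand) had 2689, 1404 and 2809 normalized counts in Col6a1-/- replicates 1, 2 and 3, against 3666, 4299 and 4100.1 in wildtype replicates 1, 2 and 3. The highest Col6a1-/- library was below the lowest wildtype library, and Col6a1-/- replicate 2 was far below the other Col6a1-/- libraries. Over 3 libraries each, means ± SD were 2301 ± 779 for Col6a1-/- and 4022 ± 324 for wildtype, or 57.2% of wildtype. Limma put the log2 fold change at -0.87 ± 0.22 (SE; 95% interval -1.35 to -0.38; adjusted p 0.101). DESeq2 on the recovered reads called it, with a log2 fold change of -0.81 and an adjusted p of 0.00333. For Cdkn1a the authors' deposited table gave a log2 fold change of -0.61 with an adjusted p of 0.00334. The unadjusted p was 3.1e-05 both by that DESeq2 fit and in the deposited table, so these log2 fold changes too are not the same measure. Without Col6a1-/- replicate 2 the limma log2 fold change was -0.55 ± 0.10 (SE; adjusted p 0.0584). With the male share as a covariate it was -0.41 ± 0.33 (SE; limma adjusted p 0.754).

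Other p53 targets lay on both sides of wildtype. Of 14 genes of the p53 response, 0 were called by limma in either direction, 9 had higher and 5 lower estimates, and the median log2 fold change was 0.03. At an unadjusted p under 0.05 there was 1, higher (Trp53inp1), against 9.72% of all tested genes, and DESeq2 called 0. Trp53inp1, a p53-induced regulator of autophagy and cell death, had 3568, 2399 and 3043 normalized counts in Col6a1-/- libraries, against 1689, 1779 and 3108 in wildtype libraries. Bbc3 and Bax, which promote cell death, followed, with log2 fold changes of 0.23 and 0.21 and limma adjusted p of 0.248 and 0.282. An antisense annotation overlaps 273 exonic bases of Cdkn1a, and since the strand setting of the counting is not given, reads of the pair cannot be told apart. The deposited counts hold no row under the GENCODE M21 name of this antisense gene.

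Mt1 and Mt2 encode metallothioneins, small cysteine-rich proteins that bind zinc, and both are induced by glucocorticoids and by metal through the factor MTF1. Mt1 (ENSMUSG00000031765.8, chromosome 8, 94179082 to 94180327, plus strand) had 858, 1326 and 981 normalized counts in Col6a1-/- replicates 1, 2 and 3, against 961, 997 and 1001 in wildtype replicates 1, 2 and 3. The highest library was Col6a1-/- replicate 2 and the lowest Col6a1-/- replicate 1, while the wildtype libraries were close together. The group means ± SD (n = 3 each) were 1055 ± 243 for Col6a1-/- and 986 ± 22.2 for wildtype, giving log2 fold change 0.07 ± 0.14 (SE; limma adjusted p 0.801). The log2 fold change of Mt1 was -0.10 without Col6a1-/- replicate 2, 0.21 without Col6a1-/- replicate 1 and -0.18 with the male share as a covariate. Mt2 (ENSMUSG00000031762.7, chromosome 8, 94172664 to 94173568, plus strand) had 228, 347 and 258 normalized counts in Col6a1-/- replicates 1, 2 and 3, against 287, 350.2 and 463 in wildtype replicates 1, 2 and 3. Here Col6a1-/- replicate 2 lay inside the wildtype range and the other Col6a1-/- libraries below it. Means ± SD of 3 libraries were 277 ± 61.7 for Col6a1-/- and 367 ± 89.2 for wildtype, giving log2 fold change -0.40 ± 0.20 (SE; limma adjusted p 0.286). For Mt2 it was -0.57 without Col6a1-/- replicate 2 (limma adjusted p 0.134, unadjusted p 0.0118) and -0.21 without wildtype replicate 3 (limma adjusted p 0.495). The male share as a covariate gave -0.98 (limma adjusted p 0.548, unadjusted p 0.00234).

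The metallothionein genes kept a narrow ratio in Col6a1-/- libraries. Mt1 over Mt2 was 3.76, 3.83 and 3.80 in Col6a1-/- replicates 1, 2 and 3, against 3.35, 2.85 and 2.16 in wildtype replicates 1, 2 and 3. The ratio did not overlap between genotypes. It was noticed in these values and was not tested. Single genes did not overlap between genotypes for 24.9% of all tested genes, and no such share was counted for ratios of gene pairs. An antisense gene overlaps 432 exonic bases of Mt2, so the Mt2 counts carry the same uncertainty as Cdkn1a, and the paralogs are alike in sequence. This antisense gene too has no row under its GENCODE M21 name in the deposited counts.

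The promoter windows of this pair are shown because the genes are neighbours with the same known inducers and differed in their libraries. Both are the 250 bases before a RefSeq start on GRCm38.p6, plus strand, chr8:94178839-94179088 for Mt1 and chr8:94172368-94172617 for Mt2. Capitals mark the core of the metal response element (TGCNCNC, either strand).

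Mt1 promoter: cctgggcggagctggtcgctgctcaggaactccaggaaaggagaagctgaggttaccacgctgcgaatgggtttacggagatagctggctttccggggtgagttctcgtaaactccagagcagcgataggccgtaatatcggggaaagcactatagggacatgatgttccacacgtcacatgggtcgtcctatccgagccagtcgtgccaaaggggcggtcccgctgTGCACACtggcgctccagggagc

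Mt2 promoter: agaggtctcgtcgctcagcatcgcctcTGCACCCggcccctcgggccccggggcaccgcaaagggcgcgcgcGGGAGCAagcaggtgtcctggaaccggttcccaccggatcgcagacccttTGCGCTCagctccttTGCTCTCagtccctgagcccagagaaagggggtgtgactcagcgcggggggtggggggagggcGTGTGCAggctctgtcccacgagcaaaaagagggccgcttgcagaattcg

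The core was found once in the Mt1 window and 5 times in the Mt2 window. Each window lies before a single RefSeq start, and cores outside it were not counted. These counts therefore depend on the choice of start and do not compare the whole promoters of the pair. Their part in the difference between the genes was not tested. At least 1 was in 44.4% of all windows, and 5 or more were in 0.344%. Neither window held the full glucocorticoid response element. In the metal response list, which holds this pair too, limma called 0 of 7 tested genes. At an unadjusted p under 0.05, 2 were lower (Mtf1 and Gclc), against 10.6% of all tested genes. DESeq2 called 0, and Mt4 was at 0 in all libraries. Mtf1, the metal-sensing factor, had 1009, 911 and 851 normalized counts in Col6a1-/- libraries, against 1139, 1216 and 1165 in wildtype libraries, with a log2 fold change of -0.35 and a limma adjusted p of 0.114. Slc30a1, a zinc exporter and MTF1 target, had a log2 fold change of 0.24 with a limma adjusted p of 0.269.

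**Figure D3:**
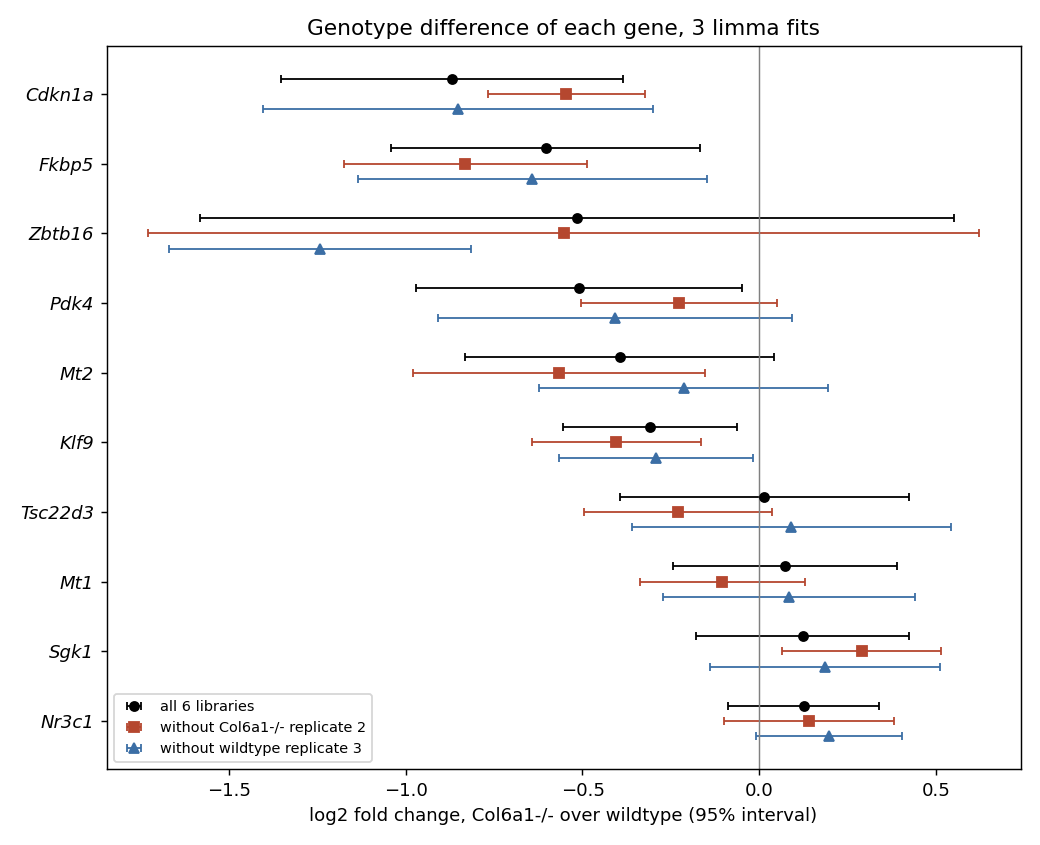
Limma log2 fold change of each gene, Col6a1-/- over wildtype, with 95% intervals, from all 6 libraries (circles), without Col6a1-/- replicate 2 (squares) and without wildtype replicate 3 (triangles). Cdkn1a moves from -0.87 to -0.55 and Fkbp5 from -0.60 to -0.83 without Col6a1-/- replicate 2, and Zbtb16 from -0.52 to -1.24 without wildtype replicate 3.

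Per length, Tsc22d3 was the most abundant member in both genotypes. Levels here are normalized counts per kilobase of the longest GENCODE M21 transcript. A gene read mainly from a shorter transcript is understated by this. The longest transcript has 1085 bases for Mt1, against 511 for its paralog Mt2, so the rank of Mt1 may depend on this choice. In Col6a1-/- lungs the order of mean levels was Tsc22d3 (3728), Sgk1 (1545), Cdkn1a (1106), Mt1 (972), Nr3c1 (952), Klf9 (890.1), Mt2 (543), Zbtb16 (313), Fkbp5 (237) and Pdk4 (204). In wildtype lungs it was Tsc22d3 (3603), Cdkn1a (1933), Sgk1 (1403), Klf9 (1096), Mt1 (909), Nr3c1 (873), Mt2 (717), Zbtb16 (535), Fkbp5 (356) and Pdk4 (281). Among Col6a1-/- libraries the ranges of neighbours overlapped from Sgk1 down to Klf9 and from Zbtb16 down to Pdk4. Among wildtype libraries they were separate from Tsc22d3 down to Mt1 and overlapped for each neighbouring pair after that.

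Col6a1-/- replicate 2, the library that stands apart in clock genes, differed from the other Col6a1-/- libraries in most members and in both directions. Against the mean of Col6a1-/- replicates 1 and 3, Tsc22d3 stood at 1.66-fold, Fkbp5 at 1.61-fold, Mt1 at 1.44-fold and Mt2 at 1.43-fold. Cdkn1a stood at 51.1%, Pdk4 at 55.3% and Sgk1 at 70.6% of that mean. Klf9 was at 1.21-fold, Zbtb16 at 1.04-fold and Nr3c1 at 96.5%. A difference of at least 0.5 on the log2 scale, a limit set after the values were seen, was passed by 7 of 10 members, 4 higher and 3 lower. Of all tested genes 12.5% passed it, 4.27% higher and 8.25% lower. Sgk1 and Mt2 lay just inside the limit, at -0.50 and 0.51, and Klf9 was the nearest outside it, at 0.28. The median size of this difference was 0.52 over the members and 0.16 over all tested genes. Between Col6a1-/- replicates 1 and 3 the same median was 0.16 for the members and 0.16 for all genes. Col6a1-/- replicate 2 was the highest of the 6 libraries for 2 members and the lowest for 3, against 19.2% and 16.9% of all tested genes, or 36.2% either way. This count was not particular to it. Col6a1-/- replicate 1 was the highest for 2 members and the lowest for 4, against 27.2% of all tested genes either way. The differences above set Col6a1-/- replicate 2 alone against 2 libraries, with no replicate check, and its male share of 100% differs from theirs. The parts of clock phase, sex and other differences between the pools cannot be told apart.

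Clock genes differed more there. Of 19 clock genes, 14 were highest and 4 lowest in Col6a1-/- replicate 2, against 19.2% and 16.9% of all tested genes. This library had been singled out beforehand by its clock genes, so the count describes it and is no test. Per1, a clock gene that is also a direct receptor target, had 9347 normalized counts in that library, against 3358 and 3130 in the other Col6a1-/- libraries and 4757, 5168 and 5549 in wildtype libraries (2.88-fold the mean of Col6a1-/- replicates 1 and 3). On the log2 scale Per1 differed by 1.53, more than any member. Dbp was at 13.2-fold and Arntl at 7.25% of the mean of Col6a1-/- replicates 1 and 3.

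**Figure D4:**
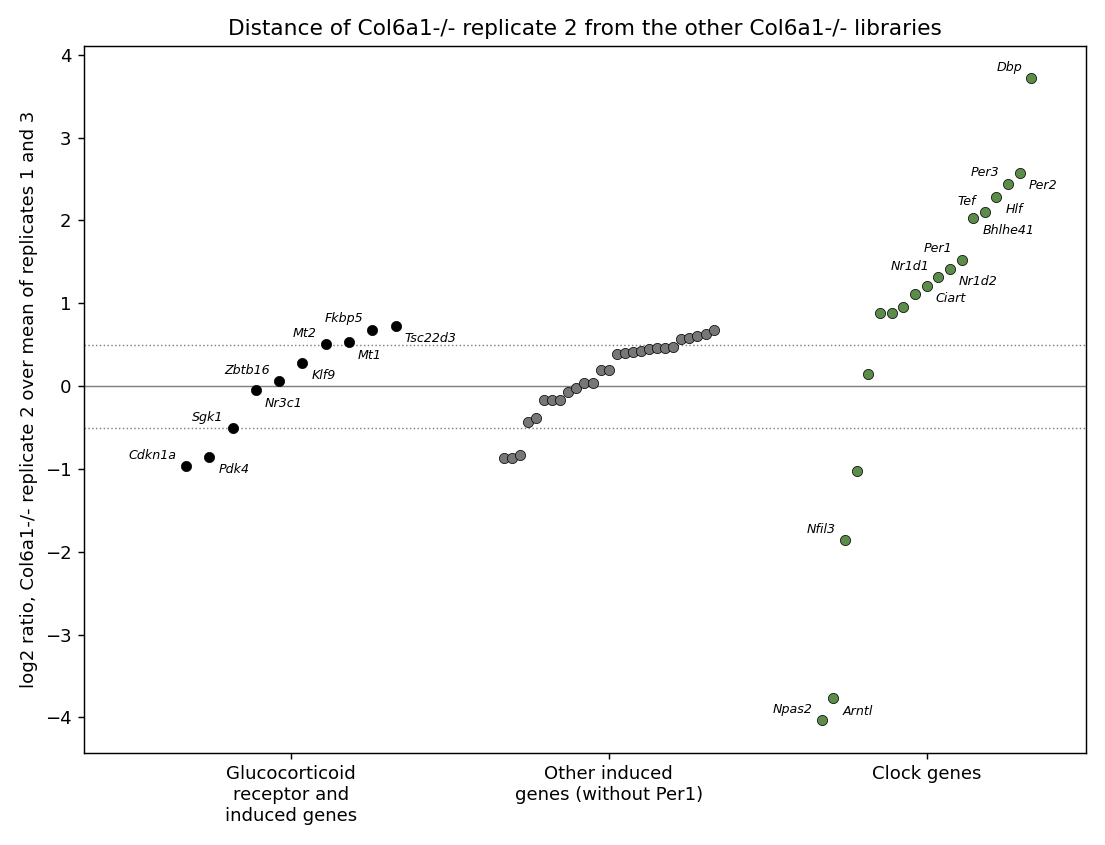
Log2 ratio of Col6a1-/- replicate 2 over the mean of Col6a1-/- replicates 1 and 3 for the receptor gene and 9 induced genes, 27 other induced genes and 19 clock genes. Each point is a gene, ordered by value within its group, and dotted lines mark ±0.5. The first group spans -0.97 (Cdkn1a) to 0.73 (Tsc22d3), while clock genes span -4.04 (Npas2) to 3.72 (Dbp).

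Other genes known to be induced by glucocorticoids lay on both sides of wildtype. Of 28 such genes, 0 were called by limma in either direction. At an unadjusted p under 0.05, 6 were lower and 2 higher, against 10.6% and 9.72% of all tested genes. DESeq2 called 4 of them lower and 2 higher, against 3.18% and 1.87% of all genes. Their median log2 fold change was -0.16, against 0.0098 over all tested genes, and 19 had lower estimates. Foxo3, a transcription factor of the fasting response, had 4532, 4093 and 4078 normalized counts in Col6a1-/- libraries, against 5643, 6050 and 6042 in wildtype libraries. Its log2 fold change was -0.48 with a limma adjusted p of 0.0693. Fam107a stood at 56.1% of wildtype, with a log2 fold change of -0.84 and a limma adjusted p of 0.0693. Edn1, which encodes the vasoconstrictor endothelin, was higher, at 1166, 1206 and 1181 normalized counts in Col6a1-/- libraries against 885, 882 and 949 in wildtype libraries, with a log2 fold change of 0.39 and a limma adjusted p of 0.0939. In Col6a1-/- replicate 2, 9 of the 28 genes were the highest and 6 the lowest of the 6 libraries. Of all tested genes 19.2% and 16.9% were. Without that library limma called 2 of the 28, both lower, against 0.281% of all genes in either direction. Without wildtype replicate 3 it called 2 lower and 2 higher, in a fit that called 1383 of all genes, 886 of them higher. That fit cannot tell sex and genotype apart. With the length and GC trend removed limma called 1 lower, in a fit that called 81 of all genes.

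**Figure D5:**
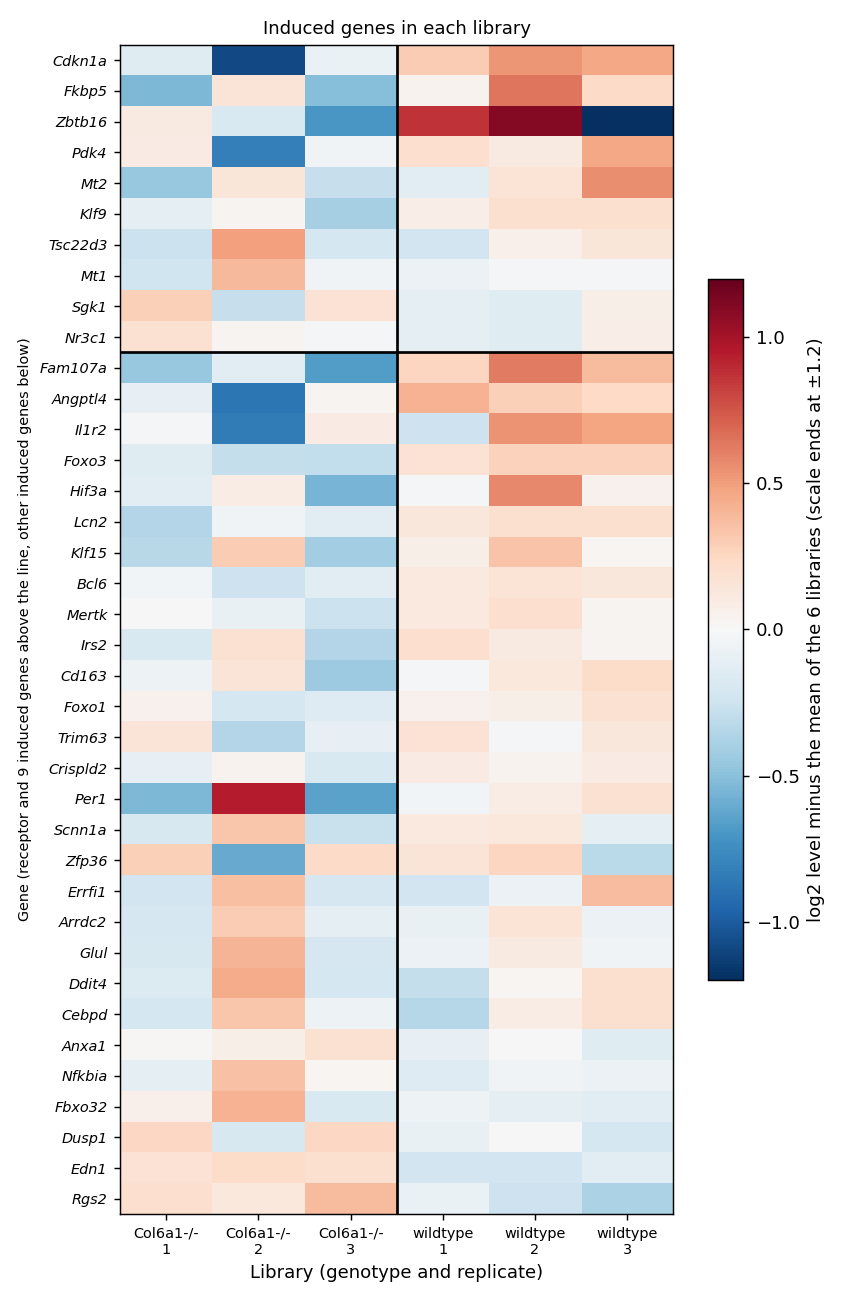
Log2 level of each gene minus its mean over the 6 libraries, in Col6a1-/- replicates 1 to 3 (left) and wildtype replicates 1 to 3 (right), with the receptor and 9 induced genes above the line and 28 other induced genes below it, each ordered by the log2 fold change. Red is above and blue below the mean, and the scale ends at ±1.2. Foxo3, Fam107a and Cdkn1a are lower and Edn1 is higher in all Col6a1-/- libraries, while Per1 is highest in Col6a1-/- replicate 2.

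Genes of the receptor machinery had lower estimates for 18 of 23 and higher for 5, with chaperones on both sides. Of the 23 chaperones, coregulators and steroid-converting enzymes, limma called 0. At an unadjusted p under 0.05 there were 13 lower and 3 higher, against 10.6% and 9.72% of all tested genes. DESeq2 called 7, all lower, against 3.18% of all genes. The median log2 fold change of the list was -0.24. Without wildtype replicate 3 limma called 6 lower and 1 higher, in a fit that called 1383 of all genes, 886 of them higher. Sex and genotype cannot be told apart in that fit. Without Col6a1-/- replicate 2 limma called 1 lower, against 0.281% of all genes in either direction. With the length and GC trend removed it called 2 lower, in a fit that called 81 of all genes. Stip1, the cochaperone that passes the receptor between chaperones, had 2212, 2071 and 2270.2 normalized counts in Col6a1-/- libraries, against 3297, 3155 and 2846 in wildtype libraries. Its log2 fold change was -0.50 with a limma adjusted p of 0.0693. Hspa8, which encodes the constitutive Hsc70, stood at 70.7% and Smarca4, a chromatin remodeller used by the receptor, at 74.5% of wildtype, with limma adjusted p of 0.0942 and 0.0869. Hsp90ab1, the main chaperone that holds the receptor, was at 31595, 31467 and 32429 normalized counts in Col6a1-/- libraries against 41869, 43306 and 40938 in wildtype libraries, with a limma adjusted p of 0.0942. Ptges3, which encodes the cochaperone p23, had the largest estimate of the list in either direction and was higher. It was at 2184, 1616 and 2444 normalized counts in Col6a1-/- libraries, against 1161, 1325 and 1907 in wildtype libraries, with overlap. Its log2 fold change was 0.52, with a limma adjusted p of 0.174 and an unadjusted p of 0.0204. The cochaperone genes Ppid and Bag1 had log2 fold changes of 0.19 and 0.16, with limma adjusted p of 0.296 and 0.458. The chaperones overlap with heat shock genes, of which limma called 1 of 11, against 0.0652% of all tested genes. The called gene was Hsph1, which fell to 56.8% of its wildtype mean (limma adjusted p 0.0105). Hsd11b1, the enzyme that regenerates active hormone inside cells, was higher, at 7773, 9262 and 8609 normalized counts in Col6a1-/- libraries, against 7055, 7383 and 7249 in wildtype libraries. It stood at 1.18-fold, with a limma adjusted p of 0.184. H6pd, which supplies the cofactor of that enzyme, stood at 81.3% with a limma adjusted p of 0.14.

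Relatives of single members and genes that share their other inducers gave no limma call. In the list of fatty acid and fasting genes read beside Pdk4, limma called 0 of 19. DESeq2 called 1, lower, against 3.18% of all genes. At an unadjusted p under 0.05 there were 4 lower (10.6% of all tested genes) and 1 higher (9.72%). The genotypes did not overlap for 6 lower (14.2% of all tested genes) and 1 higher (10.7%). The gene called by DESeq2 was Angptl4, a lipoprotein lipase inhibitor that is also a receptor target, at 2624, 1543 and 2879 normalized counts in Col6a1-/- libraries against 3758, 3445 and 3317 in wildtype libraries. Its log2 fold change was -0.63 with a limma adjusted p of 0.132, and like Pdk4 it was lowest in Col6a1-/- replicate 2. Plin2, a lipid droplet protein gene, and Ppard, a fatty acid receptor gene, had log2 fold changes of -0.31 and -0.27 with limma adjusted p of 0.127 and 0.158. Among relatives and partners of Sgk1, Klf9, Tsc22d3, Cdkn1a and Fkbp5, 0 of 15 tested were called. There were 3 lower and 1 higher at an unadjusted p under 0.05, against 10.6% and 9.72% of all tested genes. Without overlap there were 4 lower and 1 higher, against 14.2% and 10.7%. Cdkn1b, the p27 relative of Cdkn1a, had a log2 fold change of 0.33, Klf13 of -0.28 and the sodium channel subunit gene Scnn1g of -0.22, with limma adjusted p of 0.164, 0.149 and 0.177.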

How the data were processed

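Whole right lung lobes of 3 Col6a1-/- and 3 wildtype pools were measured by RNA sequencing. Tools named without role or order in the submitters' processing notes are STAR 2.5.2b, DESeq2 1.16.1, featureCounts, Trimmomatic 0.36, R 3.4.1 and Subread 1.5.0p3, and the build is GRCm38.p5. The deposited signal per gene and library is a DESeq2-normalized count, as the authors' table is named. Their deposited comparison gives a mean and a statistic (each a score), log2 fold changes and p-values.

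Kept genes reached 10 normalized counts in 3 or more libraries and were tested with limma 3.58.1 (trend) in R 4.3.3 on log2(value + 1), without covariates, which understates changes of low genes. Reads were recovered by dividing by the smallest value above 0 of each library (100% of values whole within 1e-06), and served edgeR 4.0.16, DESeq2 1.42.0 and depth. For Col6a1-/- replicate 3 the smallest value was near 1, and 100% of its values were whole too. The fits were tested on simulated data. P-values measure the spread between 3 pools per genotype.

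The members and all gene lists were chosen with earlier results of these data known. By rule, named genes are the members, called genes of the lists, up to 3 genes per list with the smallest p, clock genes given as values and the 5 nearest to Fkbp5. Hsp90ab1, Ptges3, Ppid, Bag1, Hsd11b1, H6pd, Fos and Tnf were added after their values were seen. The 18 lists beside the members held 250 entries. Positions and transcripts are from GENCODE M21 (GRCm38), promoters from RefSeq (GRCm38.p6). Figures used matplotlib 3.10.9.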

Additional observations from a re-analysis of the deposited data

How the results depend on the processing

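The alternatives were pseudocounts, filters, centring, count models, the replicate number as a block, the male share as a covariate, each library left out and, chosen after seeing the data, removal of a trend on transcript length and GC. Over the 17 alternatives, 158 of 170 member estimates kept their direction and their side of the threshold, 3 passed it and 9 turned sign. The 3 were Fkbp5 and Cdkn1a with DESeq2 and Zbtb16 without wildtype replicate 3. The adjusted p over all alternatives ran from 0.0431 to 0.614 for Fkbp5, from 0.00333 to 0.754 for Cdkn1a and from 0.00837 to 0.949 for Zbtb16. Members called numbered 2 with DESeq2 and 0 to 1 when single libraries were left out. The log2 fold change of Tsc22d3 was -0.023 with median centring, -0.50 with the male share as a covariate and -0.0063 with the length and GC trend removed. With the male share as a covariate, it was -0.032 for Nr3c1, 0.67 for Zbtb16 and -0.18 for Mt1. Leaving out a library gave -0.23 to 0.15 for Tsc22d3, -0.10 to 0.21 for Mt1 and -1.24 to -0.10 for Zbtb16. The causes were not tested.

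Of all genes, 11 were called in the fit reported, 93 without a filter, 7 with a filter of 50, 26 with median centring, 742 with DESeq2, 0 with the male share as a covariate and 81 with the length and GC trend removed. Leaving out single libraries gave 0 to 1383, with 1383 without wildtype replicate 3, 47 without Col6a1-/- replicate 2, and 0 without Col6a1-/- replicate 3 or wildtype replicate 1. With the replicate block 7 were called and no member was. Deviations of same-numbered libraries from their group means correlated at -0.136, 0.106 and -0.0059. With 3 libraries per genotype and Col6a1-/- replicate 2 apart in clock genes, these values cannot decide whether the numbers pair the pools.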

Other observations

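Inflammatory genes that glucocorticoids are known to repress gave no call between genotypes, and many were low in Col6a1-/- replicate 2. Of 17 tested, limma called 0, with 0 at an unadjusted p under 0.05, and DESeq2 called 0. Their median log2 fold change was -0.16. The smallest p belonged to Ccl3, a macrophage chemokine gene, with a log2 fold change of -0.89 and a limma adjusted p of 0.302, followed by Icam1 (-0.18 and 0.342) and Il12b (-0.43 and 0.39). Col6a1-/- replicate 2 was the lowest of the 6 libraries for 11 of the 17, against 16.9% of all tested genes. It was at least 0.5 lower on the log2 scale than the mean of Col6a1-/- replicates 1 and 3 for 8 of the 17, against 8.25% of all tested genes. Ccl3 had 13.1 normalized counts in Col6a1-/- replicate 2, compared with 53.8 and 48.0 in the other pools of that genotype and 76.8, 70.3 and 42.6 in wildtype libraries. Tnf, a central inflammatory cytokine gene, had 14.2 there, against 76.2 and 65 in the other Col6a1-/- libraries and 104, 88.9 and 47.4 in wildtype libraries.

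The same library was low in an immediate early gene. Fos had 535 normalized counts in Col6a1-/- replicate 2, compared with 2968 and 2845 in the other pools of that genotype and 2446, 2396 and 1437 in wildtype libraries. Limma called 0 of the 12 immediate early genes and DESeq2 called 1, higher, against 1.87% of all genes. Col6a1-/- replicate 2 was also set against the mean of the other Col6a1-/- libraries on the log2 scale. Of the 12 genes, 4 were at least 0.5 lower (8.25% of all tested genes) and 2 at least 0.5 higher (4.27%). Of 8 T cell markers, 5 were lowest in Col6a1-/- replicate 2, against 16.9% of all tested genes. The summed count of these markers was 1674 to 2112 in Col6a1-/- and 1840 to 2202 in wildtype libraries, and none was at 0. The part of cell composition in these values was not tested. Limma called 0 genes of the T cell, red cell, lung cell, skeletal muscle, fat, cardiac, and adrenal and liver lists. DESeq2 called 8 of 10 red cell genes, 3 of 13 fat genes and 7 of 15 cardiac genes higher, against 1.87% of all genes. It called 2 of 12 lung cell markers lower, against 3.18% of all genes, and 0 genes of the other lists named.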
